A study of Mus musculus with 15 samples.

Results

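Cytochrome P450 genes outside the Cyp4 family were followed in RNA-Seq libraries of microdissected mouse kidney tubules and of whole kidney. The members were chosen by name, with earlier results of these data known. Every gene was taken whose symbol had the form of a P450 gene (Cyp, a family number, a subfamily letter and a gene number). Pseudogenes, the Cyp4 family, Cyp24a1 and Cyp27b1 were left out. This gave 77 of the 47069 genes in the table. The same pattern found 21 Cyp4 genes, which are not described here.

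Cytochrome P450 enzymes are heme proteins that insert an oxygen atom into fatty acids, steroids, sterols, vitamins and foreign compounds, with electrons passed to them by a reductase. Families 1 to 3 act mainly on foreign compounds, fatty acids and steroids, and other families build or break down bile acids, steroid hormones, vitamin D and retinoic acid. The liver holds most of these enzymes, and in the kidney the proximal tubule is the site best known for them, with marked differences between male and female mice for several members.

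All 15 libraries came from male C57BL/6 mice aged 2 months, and the labels name no altered allele and no agent in any group. Of these, 12 libraries were each made from a single dissected tubule labelled PTS2 (the S2 segment of the proximal tubule), in 3 sets of 4 named m1, m2 and m3, and 3 were made from whole kidney tissue. The labels do not say what the set name or the tubule number stands for, nor whether the 4 tubules of a set or the 3 kidney libraries came from different animals, so p-values measure the spread between these libraries only. Values are TPM (transcript abundances corrected for transcript length and scaled to 1000000 per library), so levels may be set side by side between genes, but they keep no record of sequencing depth, which is therefore unknown.

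The libraries had between 10983 and 11511 genes at 1 TPM or more in the tubules and between 13236 and 13328 in whole kidney. The summed level of the S1 markers Slc5a2 and Slc5a12 was between 0.01 and 1.49 TPM in the tubules and between 699 and 780.0 TPM in whole kidney. Of the 2 S2 markers, Slc22a6 overlapped, at 339 to 988 TPM in the tubules and 435 to 512 TPM in kidney (log2 difference 0.17 ± 0.31, limma adjusted p = 0.67). Slc22a8 was lower in every tubule, at 24.7 to 161 TPM against 261 to 284 TPM (log2 difference -2.21 ± 0.47, limma adjusted p = 0.000882), which goes against the label of the segment. The sum of the S3 markers Slc7a13 and Atp11a was higher in the tubules, at 1825 to 2868 TPM against 949.6 to 1358 TPM. Of 5 markers of all proximal segments, Slc27a2 was higher in the tubules (log2 difference 0.98 ± 0.13, limma adjusted p = 7.39e-06). The others, Slc34a1, Hnf4a, Lrp2 and Cubn, did not pass, with log2 differences from -0.49 to -0.04. Markers of the thick ascending limb, the segment after the loop's bend, summed to 1441 TPM in replicate 3 of set m3, to at most 55.8 TPM in the other 11 tubules and to 2425 to 2723 TPM in whole kidney. Every marker of the distal convoluted tubule, principal cell, intercalated cell, podocyte, endothelium and fibroblast lists was lower in each tubule than in each kidney library. Of 4 macrophage markers, 3 were lower in this way. The other, Csf1r, was higher in the tubules (log2 difference 0.77 ± 0.31, limma adjusted p = 0.0481). That call was lost when any 1 kidney replicate was left out (adjusted p from 0.0848 to 0.162).

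The sequences upstream of 4 members are shown because these members form the pairs on which the results turn. Cyp2a4 and Cyp2a5 are near copies with different levels. Cyp2d9 and Cyp2d26 differed in opposite directions between tubules and kidney. They lie in the same group of Cyp2d genes on chromosome 15, with Cyp2d12, Cyp2d34 and Cyp2d40 between them. Each sequence is the 250 bases before the gene's RefSeq start (GRCm38.p6), read in the direction of transcription. The first pair lies at chr7:26306942-26307191 (Cyp2a4) and chr7:26835089-26835338 (Cyp2a5), both on the plus strand, and capitals mark the bases without a match in the other gene.
Cyp2a4: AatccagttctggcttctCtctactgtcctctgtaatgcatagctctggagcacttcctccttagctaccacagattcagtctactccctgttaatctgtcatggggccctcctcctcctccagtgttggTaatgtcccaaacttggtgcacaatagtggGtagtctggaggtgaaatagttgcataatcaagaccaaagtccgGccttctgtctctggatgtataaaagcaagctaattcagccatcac
Cyp2a5: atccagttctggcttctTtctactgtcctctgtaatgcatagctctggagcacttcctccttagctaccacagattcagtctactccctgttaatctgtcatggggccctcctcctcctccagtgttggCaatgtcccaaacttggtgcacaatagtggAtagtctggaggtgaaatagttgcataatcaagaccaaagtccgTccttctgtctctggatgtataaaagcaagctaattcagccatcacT
Aligned with a shift of 1 base, 245 of the 250 bases matched (98.0%), and 4 positions inside the alignment differed. The letters TATAAA, those of the TATA box, stood in both at 28 and 29 bases before the start. GTTAAT, part of the site of the HNF1 factors, stood at 160.0 and 161 bases before it. The second pair lies at chr15:82452127-82452376 (Cyp2d9, plus strand) and chr15:82794246-82794495 (Cyp2d26, minus strand), and capitals mark TATAAA, which in both is on the opposite strand and so reads TTTATA here.
Cyp2d9: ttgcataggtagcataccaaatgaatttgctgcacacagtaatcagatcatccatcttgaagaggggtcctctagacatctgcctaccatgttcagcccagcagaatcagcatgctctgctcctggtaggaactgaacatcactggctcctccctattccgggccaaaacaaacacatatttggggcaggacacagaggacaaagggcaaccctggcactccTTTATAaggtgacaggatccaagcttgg
Cyp2d26: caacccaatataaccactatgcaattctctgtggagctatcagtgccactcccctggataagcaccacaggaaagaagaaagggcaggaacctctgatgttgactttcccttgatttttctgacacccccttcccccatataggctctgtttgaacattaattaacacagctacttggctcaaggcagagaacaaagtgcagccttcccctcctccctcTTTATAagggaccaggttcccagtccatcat
This pair matched at 142 of 250 aligned bases (56.8%). All 4 GENCODE gene models begin upstream of the RefSeq start, that of Cyp2d9 well upstream, so these windows follow RefSeq only.

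Summed over the 77 genes, the P450 level was higher in every tubule than in every kidney library. The sum ranged from 5411 to 8636 TPM in the tubules (median 6472 TPM) and was 4288, 5249 and 4738 TPM in the kidney libraries. The means were 6646 ± 767 TPM (SD, n = 12) and 4759 ± 481 TPM (SD, n = 3), or 0.665% and 0.476% of all TPM. No test was made of this sum. Cyp2e1, Cyp2j5, Cyp2a4 and Cyp7b1 together made up 78.4% of it in the tubules and 74.5% in kidney. Cyp2a genes made up 10.1% of the kidney sum and 21.7% of the tubule sum, and Cyp2e1 made up 36.2% and 26.2%.

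**Figure D1:**
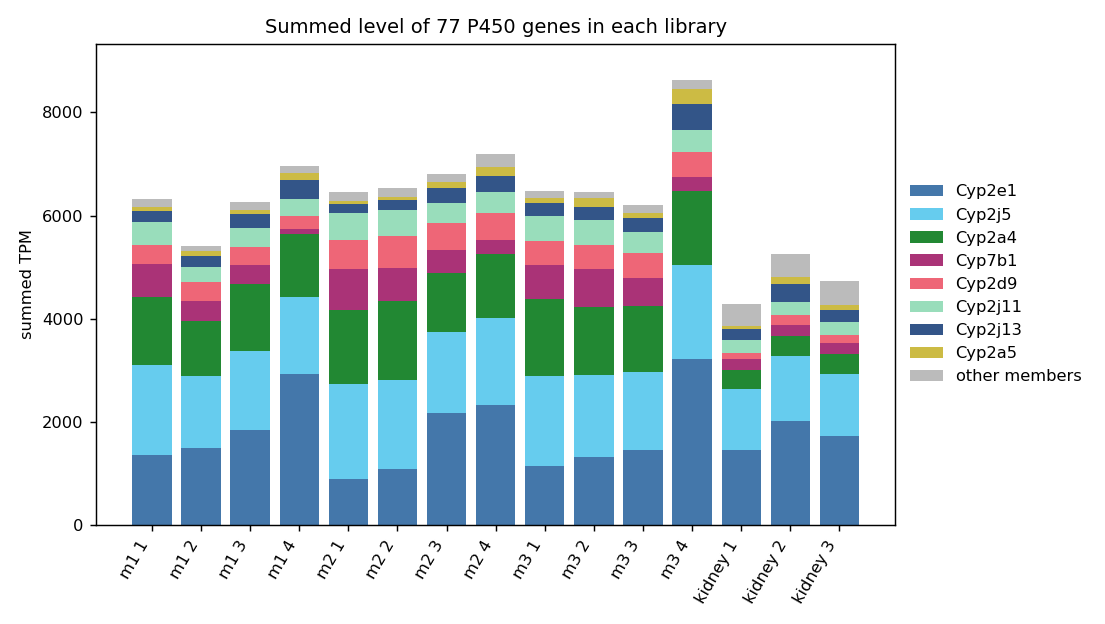
Summed TPM of the 77 P450 genes in each library (bars, 12 tubules and 3 whole kidney libraries), with the most abundant members as coloured parts. The tubule sums lie between 5411 and 8636 TPM and the kidney sums between 4288 and 5249 TPM.

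A small number of members carried these totals. Averaged over the 15 libraries, 23 of the 77 members reached 1 TPM, and 21 of them did so over the 12 tubules. In the tubules 8 members had a mean of at least 100 TPM, in the order Cyp2e1, Cyp2j5, Cyp2a4, Cyp7b1, Cyp2d9, Cyp2j11, Cyp2j13 and Cyp2a5. Neighbours in this order often overlapped over the libraries, as Cyp2e1 and Cyp2j5 did, whereas every value of Cyp2a4 was above every value of Cyp7b1. In whole kidney 9 members reached a mean of 100 TPM, now with Cyp2d26 and Cyp2d12 and without Cyp2a5. Of the other 54 members, 48 stayed under 1 TPM in every library, 10 of them at 0 in all 15. The highest single values among these 54 were 1.91 TPM for Cyp26b1, 1.69 TPM for Cyp2j7 and 1.11 TPM for Cyp2c69.

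**Figure D2:**
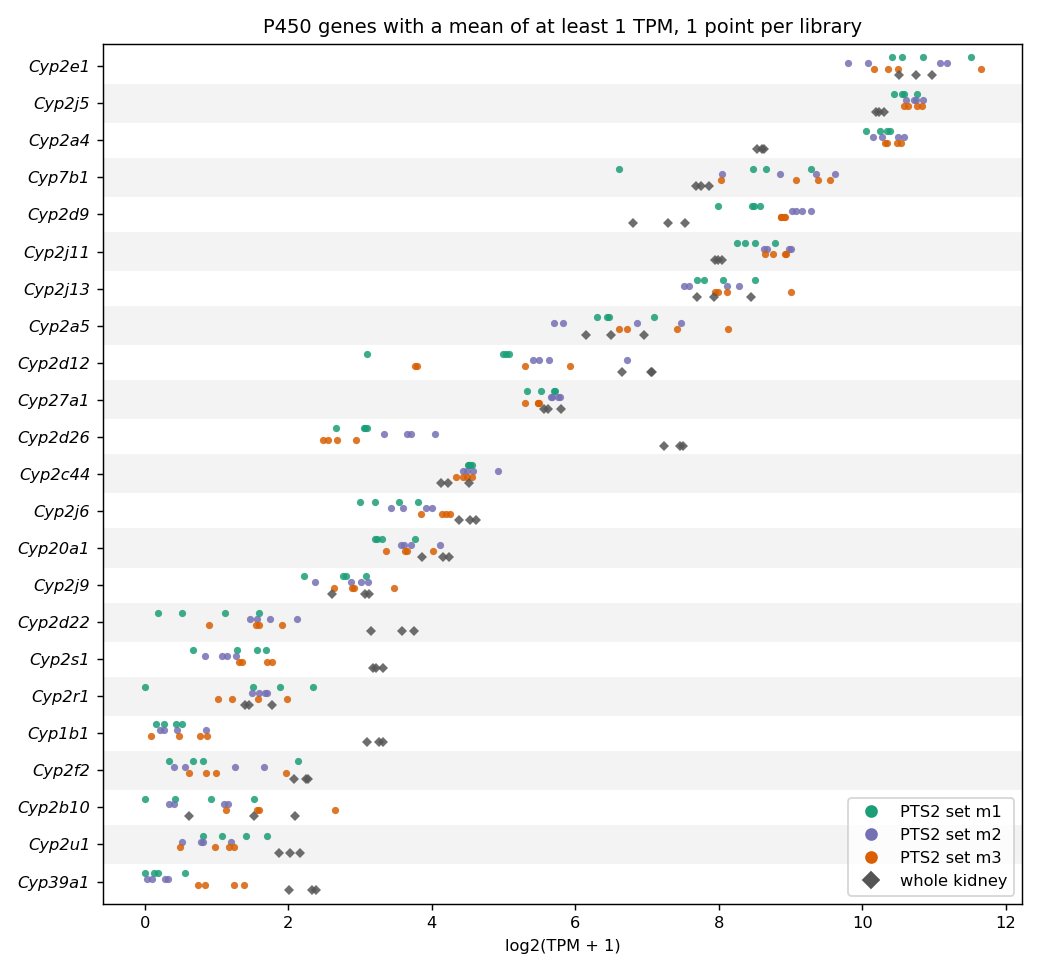
Level of the 23 P450 genes that averaged 1 TPM or more, as log2(TPM + 1), 1 point per library, for the 12 tubules and 3 whole kidney libraries. Cyp2a4, Cyp2d9, Cyp2j11 and Cyp2j5 lie higher in all tubules, and Cyp2d26 and Cyp1b1 show the widest gaps in the other direction.

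PTS2 tubules were then compared with whole kidney, which asks how far the P450 profile of kidney tissue is that of this segment. Differences were tested with limma on log2(TPM + 1) over all 12039 genes that averaged 1 TPM or more. P-values were adjusted by Benjamini-Hochberg, and genes under 0.05 were called. Of the 23 members tested, 4 were higher in the tubules, among 9.68% of all genes tested, and 10 were lower, among 41.5%. Of these 10, Cyp1b1 and Cyp39a1 reached the level needed for testing only through their kidney values, so that they had to differ, and their tests are not given. Libraries did not overlap for 4 members that were higher (5.76% of all genes) and 7 that were lower (32.0% of all genes). These 7 include Cyp1b1 and Cyp39a1, which had to differ. The median log2 difference was -0.09 over the 23 members and -0.27 over all genes. The log2 differences of this fit were not corrected for that shift of all genes. With median-of-ratios rescaling, 2830 genes were higher and 2859 lower, and the members' split became 6 higher and 8 lower. With quantile normalization the median of all genes was 0.16, with 4164 genes higher and 2273 lower, and the split of members was 6 and 6. In bulk libraries like these, fewer cells of a type and less RNA per cell cannot be told apart.

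The Cyp2a genes, whose products hydroxylate testosterone and coumarin, were dominated by Cyp2a4 (ENSMUSG00000074254). Cyp2a4 ranged from 1059 to 1527 TPM in the tubules (median 1304 TPM) and was 369, 389 and 394 TPM in the kidney libraries. Every tubule was above every kidney library, by 3.42-fold on the means. On the log2 scale this was 1.77 ± 0.10 (SE; limma, adjusted p = 1.3e-10), with the tubules among themselves close together (CV 10.9%). Cyp2a5 (ENSMUSG00000005547), the coumarin hydroxylase, ranged from 51.1 to 279 TPM in the tubules (median 100.5 TPM) and was 70.2, 124 and 89.1 TPM in kidney. Its groups overlapped, and its log2 difference of 0.22 ± 0.39 did not pass the test (limma adjusted p = 0.662). The other 2 Cyp2a genes were at most at 0.02 TPM. Of the 5 Cyp2b genes, only Cyp2b10, a known target of the receptor Nr1i3, was above 0.15 TPM in any library, at 0 to 5.27 TPM in the tubules and 0.53, 3.29 and 1.89 TPM in kidney (log2 difference -0.34 ± 0.43, limma adjusted p = 0.522).

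Reads of Cyp2a4 and Cyp2a5 are hard to keep apart. Of all stretches of 50 bases in the longest coding transcript of Cyp2a4, 38.0% also occurred in another gene, and 36.1% in Cyp2a5. For Cyp2a5 the shares were 40.8%, and 31.01% in Cyp2a4. The summed level of the 4 Cyp2a genes, which does not depend on that split between them, was 1435 ± 154 TPM (SD, n = 12) in the tubules and 478 ± 37.1 TPM (SD, n = 3) in kidney. These ranges, 1147 to 1716 TPM and 439 to 513 TPM, did not overlap.

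The Cyp2d genes differed in opposite directions. Cyp2d9 (ENSMUSG00000068086), a testosterone hydroxylase known for its higher level in male mice, ranged from 254 to 623 TPM in the tubules (median 474 TPM) and was 110.5, 183 and 156 TPM in kidney. All tubules were above all kidney libraries, a log2 difference of 1.60 ± 0.20 (limma adjusted p = 5.54e-06). Cyp2d26 (ENSMUSG00000022445) ranged from 4.60 to 15.5 TPM in the tubules (median 7.38 TPM) and was 179.7, 149.5 and 175 TPM in kidney. All tubules were below all kidney libraries, 20.7-fold on the means, and the log2 value was -4.29 ± 0.26 (limma adjusted p = 5.32e-10). Cyp2d12 ranged from 7.54 to 104 TPM in the tubules (median 35.6 TPM) against 100.05, 132 and 133 TPM in kidney. Only the highest tubule, replicate 4 of set m2, reached into the kidney range, and the log2 difference was -1.91 ± 0.55 (limma adjusted p = 0.0082). Cyp2d22 was lower too, at 0.14 to 3.34 TPM against 7.88, 12.4 and 11.1 TPM, without overlap (log2 difference -2.14 ± 0.32, limma adjusted p = 3.47e-05). The sums of all 8 Cyp2d genes overlapped between the groups, with means of 507 ± 121 TPM (SD, n = 12) and 450.2 ± 45.2 TPM (SD, n = 3), with Cyp2d9 the largest share in the tubules. Stretches of 50 bases found in any other gene made up 29.0% for Cyp2d9, 17.9% for Cyp2d12, 10.5% for Cyp2d26 and 6.14% for Cyp2d22. Cyp2d9 shared 10.7% with Cyp2d12, its closest partner, and Cyp2d12 shared 11.1% with Cyp2d9. Cyp2d26 shared 5.33% with Cyp2d22, its closest partner, and Cyp2d22 shared 3.235% with Cyp2d26. Reads may therefore be divided between these genes and with further genes.

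The Cyp2j genes encode epoxygenases and hydroxylases of arachidonic acid, and Cyp2j5 (ENSMUSG00000052520) is the form best known in mouse kidney. Cyp2j5 ranged from 1389.9 to 1838 TPM in the tubules (median 1641 TPM) and was 1168, 1265 and 1206 TPM in kidney. The groups did not overlap, and the log2 value was 0.43 ± 0.08 (limma adjusted p = 0.000269). Cyp2j11 was also higher without overlap, at 305 to 516 TPM (median 419 TPM) against 246, 263 and 252 TPM, with a log2 difference of 0.72 ± 0.13 (limma adjusted p = 0.000297). Cyp2j13 did not pass the test, at 181 to 512 TPM against 207, 349 and 244 TPM (log2 difference 0.02 ± 0.24, limma adjusted p = 0.945), and neither did Cyp2j9, at 3.68 to 10.2 TPM against 5.14, 7.71 and 7.41 TPM. Only with quantile normalization did Cyp2j9 pass, with its sign changed (0.61, adjusted p = 0.014). Cyp2j6 was lower, at 7.03 to 18.0 TPM against 22.1, 19.8 and 23.5 TPM, with a log2 difference of -0.76 ± 0.22 (limma adjusted p = 0.00767). Its call was lost with median-of-ratios rescaling (-0.48, adjusted p = 0.051) and with quantile normalization (-0.36, adjusted p = 0.106). Of the 15 Cyp2c genes, only Cyp2c44, an arachidonic acid epoxygenase, reached a mean of 1 TPM. It was at 19.2 to 29.5 TPM in the tubules and 17.7, 22.0 and 16.5 TPM in kidney (log2 difference 0.24 ± 0.11, limma adjusted p = 0.0679). It passed the test with median-of-ratios rescaling (0.52, adjusted p = 0.00116), with quantile normalization (0.66, adjusted p = 0.000209), without replicate 1 of set m3 (0.26, adjusted p = 0.0476) and without kidney replicate 2 (0.36, adjusted p = 0.0237).

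Cyp2e1 (ENSMUSG00000025479), which oxidises ethanol, acetaminophen and small solvents, had the highest mean of the members in both groups. In the tubules the means of Cyp2e1 and Cyp2j5 were 1769 and 1638 TPM, but Cyp2j5 had the higher median. Cyp2e1 ranged from 889.5 to 3216 TPM in the tubules (median 1471 TPM) and was 1458, 2012 and 1718 TPM in kidney. The kidney values lay inside the range of the tubules, and the log2 difference was -0.06 ± 0.33 (limma adjusted p = 0.882). Of the family 2 members outside these subfamilies, Cyp2s1, Cyp2u1 and Cyp2f2 were lower in the tubules. Cyp2s1, which the aryl hydrocarbon receptor can induce, was at 0.60 to 2.42 TPM against 8.32, 8.98 and 8.11 TPM, with no overlap (log2 difference -1.93 ± 0.20, limma adjusted p = 5.86e-07). Cyp2u1, a fatty acid hydroxylase, was at 0.41 to 2.25 TPM against 3.49, 2.66 and 3.08 TPM, with a log2 difference of -1.0 ± 0.22 (limma adjusted p = 0.00104). Cyp2f2, which activates naphthalene in the lung, was at 0.26 to 3.38 TPM against 3.23, 3.84 and 3.75 TPM, and overlapped in its highest tubule (log2 difference -1.18 ± 0.35, limma adjusted p = 0.0101). With quantile normalization neither Cyp2u1 (-0.19, adjusted p = 0.498) nor Cyp2f2 (-0.34, adjusted p = 0.425) passed the test.

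Family 1 holds the classic targets of the aryl hydrocarbon receptor, and its sum was 9.27 ± 0.910 TPM (SD, n = 3) in kidney and 0.390 ± 0.267 TPM (SD, n = 12) in the tubules. Most of it was Cyp1b1 (ENSMUSG00000024087), at 0.06 to 0.83 TPM in the tubules and 9.00, 8.66 and 7.54 TPM in kidney. Every tubule was below every kidney library, 21.7-fold on the means. Cyp1a1 was at 0.72 to 1.03 TPM in kidney and at most at 0.01 TPM in a tubule. The fibroblast and pericyte markers Col1a1, Col1a2, Dcn and Pdgfrb summed to 65.4 to 76.8 TPM in kidney and 0.32 to 5.20 TPM in the tubules, and the 4 endothelial markers to 118 to 127 TPM and 8.87 to 32.7 TPM. All 8 of these markers were lower in each tubule, and their part in the family 1 values was not tested. The 9 Cyp3a genes, the main drug-oxidising P450 genes of liver, summed to 0.609 ± 0.323 TPM (SD, n = 12) in the tubules and 0.410 ± 0.0624 TPM (SD, n = 3) in kidney. No Cyp3a gene exceeded 1.01 TPM in any library, the value of Cyp3a13.

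Among the 7 members that act on sterols, bile acids and vitamin D, Cyp7b1 (ENSMUSG00000039519), an oxysterol hydroxylase, was by far the most abundant. It ranged from 96.8 to 784 TPM in the tubules (median 500.8 TPM) and was 231, 215 and 204 TPM in kidney. Of the 12 tubules, 11 were above the kidney range and replicate 4 of set m1 was below it. The log2 difference was 0.98 ± 0.47 and did not pass the test (SE, limma adjusted p = 0.0926). Without that tubule it did (1.17, adjusted p = 0.00557), as it did with median-of-ratios rescaling (1.27, adjusted p = 0.0328) and with 1 mean per set (1.15, adjusted p = 0.000633). Cyp27a1, the mitochondrial sterol hydroxylase of bile acid synthesis, stayed within 38.4 to 54.4 TPM in the tubules and was 48.3, 46.5 and 54.6 TPM in kidney (log2 difference -0.09 ± 0.10, limma adjusted p = 0.499). Cyp39a1, another oxysterol hydroxylase, was lower in all tubules, at 0 to 1.61 TPM against 3.02, 4.05 and 4.26 TPM. Cyp2r1, a vitamin D hydroxylase, was at 0 to 4.09 TPM against 1.75, 2.42 and 1.63 TPM (log2 difference -0.04 ± 0.34, limma adjusted p = 0.928). Cyp7a1, the rate-limiting enzyme of bile acid synthesis in liver, was listed at 0 in all kidney libraries and reached 1.02 TPM in a tubule.

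The remaining members were low. The 6 genes of steroid hormone synthesis (Cyp11a1, Cyp11b1, Cyp11b2, Cyp17a1, Cyp19a1 and Cyp21a1) had no value above 0.57 TPM, and summed to 0.0683 ± 0.0536 TPM (SD, n = 12) in the tubules and 0.243 ± 0.284 TPM (SD, n = 3) in kidney. Of the adrenal cortex markers, Nr5a1 was at 0 in every library, and the 4 markers together summed to 3.57 to 4.77 TPM in kidney. The 3 genes of retinoic acid breakdown summed to 0.283 ± 0.263 TPM (SD, n = 12) and 1.26 ± 0.815 TPM (SD, n = 3), mostly Cyp26b1. Cyp20a1, a member without a settled substrate, was at 8.25 to 16.3 TPM in the tubules and 13.6, 17.9 and 16.9 TPM in kidney, a log2 difference of -0.49 ± 0.17 (limma adjusted p = 0.0257). Its call was lost with median-of-ratios rescaling (-0.22, adjusted p = 0.303), with quantile normalization (-0.01, adjusted p = 0.978) and without kidney replicate 2 (-0.42, adjusted p = 0.122) or 3 (-0.45, adjusted p = 0.0957). The 4 calls of higher members and the calls of Cyp2d26, Cyp2d12, Cyp2d22 and Cyp2s1 as lower held under every alternative in which the gene was tested. Without replicate 3 of m3, the tubule with the thick ascending limb markers, the counts were again 4 and 10, and 2 members passed the F test among sets and 3 the F test by tubule number. Cyp1a1, Cyp3a13 and Cyp7a1 are named here after their values were seen.

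Abundant members and members near 0 TPM stood side by side in the genome. In the GENCODE M21 annotation (GRCm38), 58 of the 77 members lay in 8 clusters in which neighbouring members were at most 500 kb apart. The Cyp2j cluster, at chr4:96027534-96664154, held 8 members, of which Cyp2j5, Cyp2j11 and Cyp2j13 had a tubule mean over 100 TPM and Cyp2j12 and Cyp2j8 had means of 0.0092 and 0.119 TPM. The cluster at chr7:25802475-27158668 held 13 members. Within it, Cyp2a4 and Cyp2a5, at tubule means of 1315 and 119.8 TPM, had Cyp2b23, Cyp2b19 and Cyp2g1 between them, with means of at most 0.0358 TPM. In the Cyp2d cluster, at chr15:82370527-82794294, Cyp2d9 lay next to Cyp2d10, whose tubule mean was 0.238 TPM. Of the stretches of 50 bases in Cyp2d10, 40.5% also occurred in another gene, so its value may depend on how reads were divided. Clusters of 8 Cyp3a genes and of 14 Cyp2c genes held no member with a mean of 1 TPM, and Cyp2c44 lay outside the Cyp2c cluster.

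**Figure D3:**
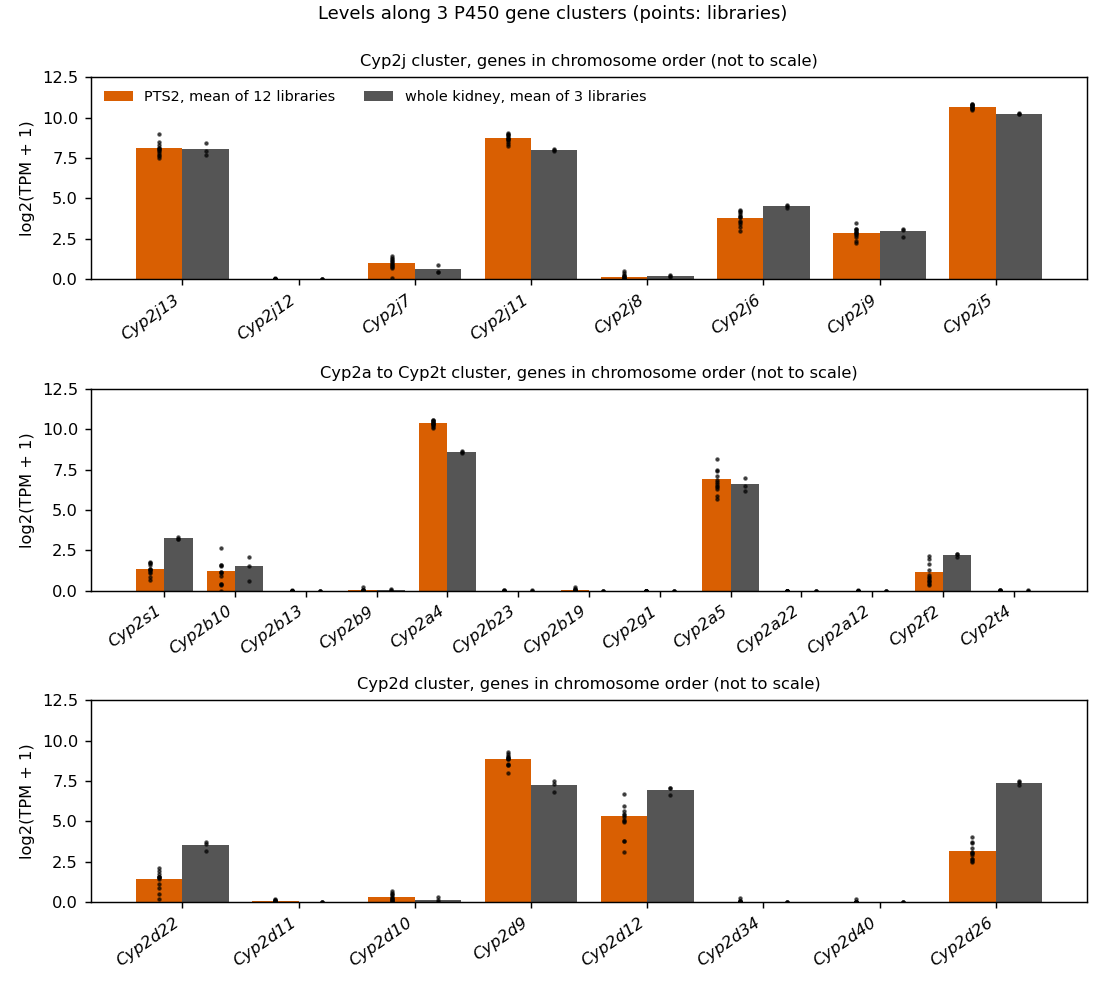
Levels along the Cyp2j cluster, the cluster from Cyp2s1 to Cyp2t4 that holds the Cyp2a genes, and the Cyp2d cluster, as log2(TPM + 1), in chromosome order and not to scale. Bars are the means of 12 tubules and of 3 kidney libraries, and points are libraries. Genes near 0 lie beside Cyp2a4 (tubule mean 1315 TPM) and Cyp2d9 (458 TPM).

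Of the 77 members, 62 had a RefSeq promoter entry, among them 17 of the 23 more abundant ones, and 5 motifs were searched on both strands of the 250 bases before the start. TATAAA was found in 6 of the 17 (Cyp2a4, Cyp2a5, Cyp2d9, Cyp2d26, Cyp2e1 and Cyp2j5), against 12.4% of all 32851 promoters of that length. The match in Cyp2j5 began 128 bases before the start, and those in the others began 28 to 31 bases before it. GTTAAT was found in Cyp2a4, Cyp2a5 and Cyp2d26, against 6.43% of all promoters. The STAT5-type element TTCNNNGAA was found in Cyp2j11 only (7.02% of all promoters), GCGTG, the core of the aryl hydrocarbon receptor's site, in 5 of the 17 including Cyp1b1 (28.2%), and CAAAGTCCA, of the HNF4 type, in none (0.384%). No matches to different motifs overlapped in these members. Members were counted once per gene and the other shares per promoter. The near copies Cyp2a4 and Cyp2a5 were counted separately, so no excess of a motif can be read from these counts. These are matches of letters, with no measure of binding.

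The 3 sets of tubules were compared with each other over 11300 genes, 21 of them members. By the F test 2 members differed among the sets, Cyp2d9 and Cyp2d26, while 3.02% of all genes did. Cyp2d9 was at 381, 354, 359.8 and 254 TPM in m1, at 573, 623, 517 and 540.1 TPM in m2, and at 467, 465, 480.4 and 485 TPM in m3. No value was shared between sets, with m1 lowest and m2 highest (F test, limma adjusted p = 0.00443). The step between m3 and m2 alone did not pass (log2 difference -0.24 ± 0.11, limma adjusted p = 0.428). Between m2 and m1, where 0.54% of all genes differed, Cyp2d9 was the member called, with a log2 difference of 0.75 ± 0.11 (limma adjusted p = 0.00492). Between m3 and m1 (3.17% of all genes) it was again the member called, with 0.51 ± 0.11 (limma adjusted p = 0.0248). That second call was lost with median-of-ratios rescaling (adjusted p = 0.0551), without a filter on low values (0.0869), and without replicate 1 (0.0712), 2 (0.0557) or 3 (0.0692) of m3, of which replicate 3 is the tubule with the thick ascending limb markers.

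Cyp2d26 was at 7.32, 7.55, 5.34 and 7.43 TPM in m1, at 9.09, 11.6, 12.1 and 15.5 TPM in m2, and at 4.60, 4.89, 6.71 and 5.40 TPM in m3. All of m2 was above both other sets (F test, limma adjusted p = 0.00855). Between m3 and m2, where 1.97% of all genes differed, Cyp2d26 was the member called, with a log2 difference of -1.02 ± 0.16 (limma adjusted p = 0.00531). Between m2 and m1 it did not pass (log2 difference 0.71 ± 0.16, limma adjusted p = 0.0903). Cyp2d12 had set means of 25.8 ± 12.2, 59.6 ± 30.01 and 31 ± 22.9 TPM (SD, n = 4 each; F test, limma adjusted p = 0.363). The Cyp2d sums of m1, m2 and m3 averaged 371, 638 and 513 TPM. Of the other members tested, 5 had an unadjusted p under 0.05 that did not pass after adjustment: Cyp2j6, Cyp2j11, Cyp2b10, Cyp27a1 and Cyp2d22. An unadjusted p under 0.05 was found for 16.4% of all genes. Cyp2j6 passed without replicate 1 of m1 (limma adjusted p = 0.0339). Among the most abundant members, Cyp2j5 and Cyp2a4 did not pass, with Cyp2j5 means of 1537 ± 142, 1704 ± 111 and 1673 ± 137 TPM and Cyp2a4 means of 1228 ± 124, 1338 ± 182 and 1378 ± 101 TPM (SD, n = 4 each; F test, limma adjusted p = 0.527 and 0.606).

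**Figure D4:**
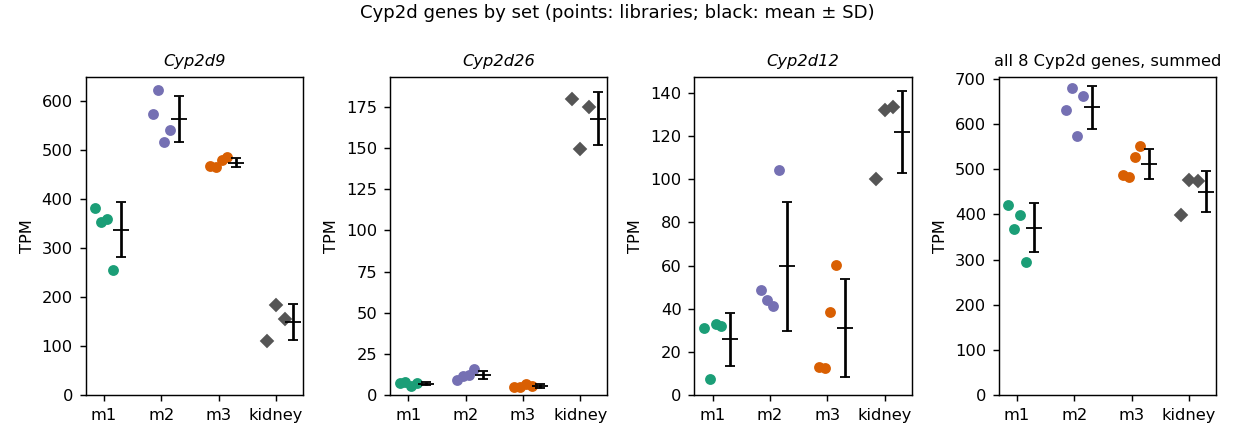
TPM of the Cyp2d genes in the 4 tubules of each set and in the 3 kidney libraries, with black marks for mean ± SD. Cyp2d9 values separate the sets in the order m1, m3, m2, and Cyp2d26 is highest in m2 among the tubules but far under its kidney level of 149.5 to 179.7 TPM. The steps between m3 and m2 for Cyp2d9 and between m2 and m1 for Cyp2d26 did not pass in limma.

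Within the sets, tubules carry the numbers 1 to 4, and several members differed by that number. The numbers were treated as unordered, with the set as a term in the fit. By the F test 4 members differed, Cyp7b1, Cyp2j13, Cyp2e1 and Cyp2f2, while 2.71% of all genes did. Another 6 members had an unadjusted p under 0.05, as 21.1% of all genes did in all. Tubule number 4 was the highest of its set in all 3 sets for 6 members (Cyp2e1, Cyp2j13, Cyp2a5, Cyp2c44, Cyp2b10 and Cyp2f2; 4.79% of all genes) and the lowest in all 3 for Cyp7b1 (4.49% of all genes).

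Cyp2e1 was at 1361, 1498, 1848 and 2931 TPM in tubules 1 to 4 of m1, at 889.5, 1085, 2172 and 2326 TPM in m2, and at 1147, 1316, 1444 and 3216 TPM in m3. The 3 tubules numbered 4 were above all other tubules and above all kidney libraries (F test, limma adjusted p = 0.0106). Between numbers 4 and 1 the log2 difference was 1.33 ± 0.17 (SE), and the ratio was 2.15, 2.62 and 2.80 in m1, m2 and m3. Cyp7b1 ran the other way, at 625, 405, 355 and 96.8 TPM in m1, at 784, 653, 460.5 and 265 TPM in m2, and at 667, 747, 541 and 259.96 TPM in m3. The 3 tubules numbered 4 were below all other tubules (F test, limma adjusted p = 0.00839), with a log2 difference of -1.87 ± 0.20 (SE) between numbers 4 and 1. Cyp2j13 was at 222, 207, 267 and 363 TPM in m1, at 181, 192, 277 and 311 TPM in m2, and at 246, 253, 277 and 512 TPM in m3. It was again highest in the tubules numbered 4 (F test, limma adjusted p = 0.00964, log2 difference between numbers 4 and 1 of 0.85 ± 0.11). Cyp2j5 and Cyp2j11, of the same cluster, did not pass this test (limma adjusted p = 0.269 and 0.221), although Cyp2j11 did without replicate 2 of m1 (limma adjusted p = 0.0389).

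Cyp2f2 was low throughout, with means of 0.487 ± 0.138, 0.577 ± 0.381, 0.990 ± 0.356 and 2.83 ± 0.612 TPM for numbers 1 to 4 (SD, n = 3 each), and all tubules numbered 4 were above all others. Its F test (limma adjusted p = 0.0399) passed in 6 of the 17 alternatives in which it was tested. It was lost with a pseudocount of 0.1 (0.0693) and without replicate 1 (0.0782), 3 (0.0666) or 4 (0.188) of m1, replicate 1 (0.106) or 4 (0.10) of m2, or replicate 1 (0.0896), 3 (0.0548) or 4 (0.120) of m3. Cyp2a5, at means of 79.7 ± 24.1, 103 ± 60.7, 99.2 ± 15 and 197 ± 74.0 TPM for numbers 1 to 4 (SD, n = 3 each), did not pass (limma adjusted p = 0.0943). It did at a mean of at least 10 TPM (0.0438) and without replicate 2 (0.0374) or 3 (0.0344) of m2. All 4 calls depended on the fit. Without a filter on low values, and without the set as a term, no member and no gene at all passed in limma. At an unadjusted p under 0.05 there were then 2871 genes with 9 members and 1419 genes with 6 members. In both fits the adjusted p was 0.132 and 0.10 for Cyp2e1, 0.111 and 0.149 for Cyp7b1, 0.115 and 0.162 for Cyp2j13, and 0.210 and 0.110 for Cyp2f2.

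Between numbers 4 and 1, a contrast chosen after the values were seen, 4 members were higher in number 4 (1.69% of all genes were) and 1 was lower (3.07%). Cyp2e1 and Cyp7b1 kept this call in all 18 alternatives, and Cyp2j13 lost it only without the set term (limma adjusted p = 0.0546). Cyp2f2, with a log2 difference of 1.36 ± 0.25 (limma adjusted p = 0.0112), lost it in 4 of 17 alternatives, without a filter (0.0725) and without replicate 4 of m1 (0.0807), replicate 1 of m2 (0.068) or replicate 1 of m3 (0.051). Cyp2a5, with 1.28 ± 0.28 (limma adjusted p = 0.0268), lost it in 7 of 18, without a filter (0.175), without the set term (0.182) and without replicate 1 of m1 (0.062), replicate 1 (0.138) or 4 (0.119) of m2, or replicate 1 (0.0967) or 4 (0.0927) of m3.

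Markers of segments and of other cells also differed by tubule number. The S2 markers Slc22a6 and Slc22a8 summed to 892 to 1149 TPM in the 3 tubules numbered 4 and to at most 762 TPM in the others, and both passed the F test (limma adjusted p = 0.0121 and 0.0102). The S3 markers Slc7a13 and Atp11a did not (limma adjusted p = 0.105 and 0.127), with sums of 1825 to 2549.98 TPM in number 4 and 1933 to 2868 TPM in the others. Slc34a1, a phosphate transporter of the proximal tubule, passed (limma adjusted p = 0.0142), with means of 2777, 2719, 3090 and 4817 TPM for numbers 1 to 4. It was 1 of 5 tested markers of all proximal segments, and the others did not pass. Of the 3 principal cell markers Aqp3 passed (limma adjusted p = 0.027), at 21.4 to 43.1 TPM in number 4 and at most 19.3 TPM in the others. Aqp2, the water channel that defines these cells, did not (limma adjusted p = 0.914), and Scnn1g was at most at 0.09 TPM in a tubule. Csf1r, a receptor of macrophages, had means of 56.2, 42.4, 32.4 and 25.6 TPM for numbers 1 to 4, and Serpina1c, a hepatocyte marker, 11.4, 10.8, 8.51 and 4.43 TPM (limma adjusted p = 0.00943 for both). These were 1 of 3 macrophage and 1 of 4 hepatocyte markers tested. Csf1r was also the macrophage marker that was higher, and not lower, in the tubules than in kidney. All 6 of the marker calls by tubule number were lost without a filter on low values and without the set term. Single libraries also ended the calls of Aqp3 (replicates 1 and 4 of each set, adjusted p from 0.0604 to 0.143), Slc22a6 and Slc34a1 (replicate 4 of m2 or m3, 0.0503 to 0.0566) and Slc22a8 (replicate 4 of m1 or m3, 0.0549 and 0.0507). The S1 markers stayed at or under 1.49 TPM in all tubules. The part of segment position or of other cells in the P450 values was not tested.

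**Figure D5:**
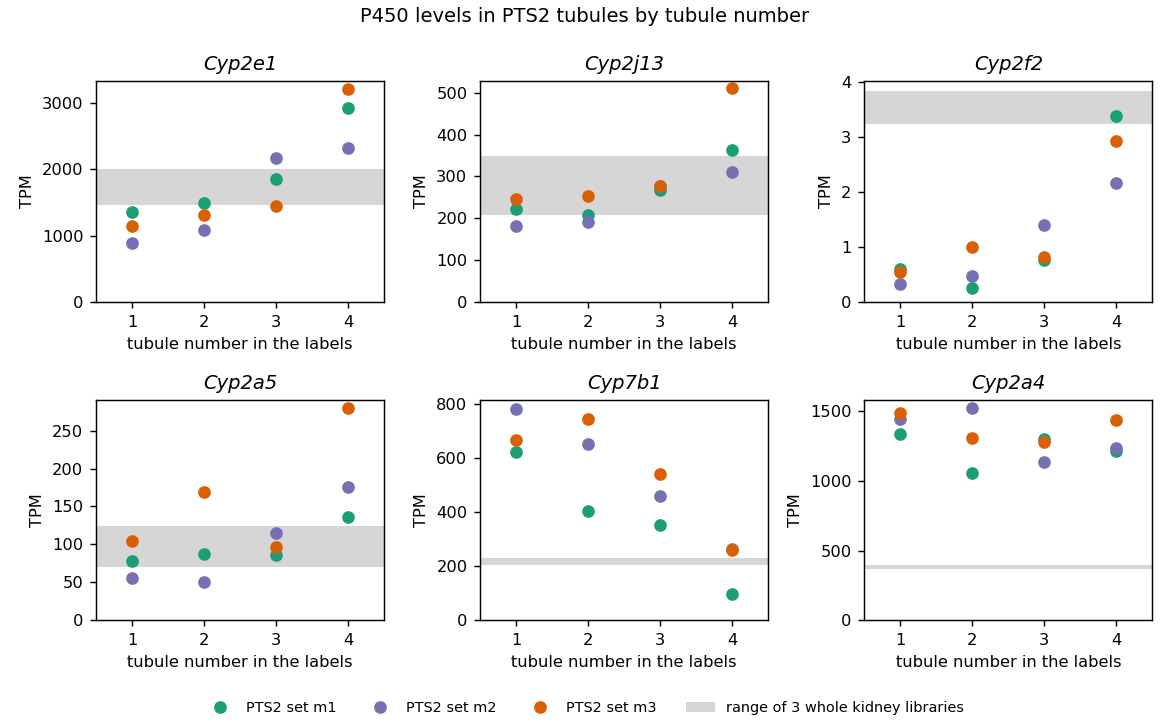
TPM of P450 genes in the 12 tubules by tubule number, with 1 point per tubule, coloured by set. A grey band gives the range of the 3 kidney libraries. Cyp2e1, Cyp2j13, Cyp2f2 and Cyp2a5 are highest and Cyp7b1 is lowest in tubule number 4 within each of the 3 sets. Cyp2a4 shows neither order. The F test by tubule number did not pass in limma for Cyp2a5 or Cyp2a4.

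Genes that serve the P450 enzymes were taken as lists. Of 7 electron donors, all tested, 3 were higher and 2 lower in the tubules than in kidney. Por, the reductase of the microsomal P450 enzymes, was at 349 to 630.1 TPM in the tubules and 248, 326 and 295.5 TPM in kidney (log2 difference 0.67 ± 0.16, limma adjusted p = 0.00181). Cyb5a, cytochrome b5, was at 5737 ± 634 TPM (SD, n = 12) and 4066 ± 551 TPM (SD, n = 3), and Cyb5r3, its reductase, also rose (log2 differences 0.50 and 0.47). Fdxr, the mitochondrial ferredoxin reductase, and Pgrmc1 fell by 0.42 each on the log2 scale. Both of these lower calls were lost with median-of-ratios rescaling, where 5 donors were higher and 0 lower in limma (Pgrmc1 -0.13, adjusted p = 0.194; Fdxr -0.16, adjusted p = 0.339). Fdxr was also lost without kidney replicate 2 (-0.40, adjusted p = 0.0622) or 3 (-0.35, adjusted p = 0.0912), and changed sign with quantile normalization (0.20, adjusted p = 0.214). Of 7 genes for other oxidation and epoxide hydrolysis, 3 were higher and 1 lower. Ephx2, the soluble hydrolase of the fatty acid epoxides that Cyp2j and Cyp2c enzymes form, was at 750.4 to 1116 TPM against 458 to 569 TPM (log2 difference 0.78 ± 0.09, limma adjusted p = 2.85e-06). Ephx1, the microsomal epoxide hydrolase, was at 0.70 to 5.79 TPM against 25.9 to 31.8 TPM (log2 difference -3.30 ± 0.34, limma adjusted p = 4.74e-07). Fmo5, a flavin monooxygenase, had a log2 difference of 0.90. The count became 5 higher and 1 lower with median-of-ratios rescaling and 4 and 1 with quantile normalization.

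Of 8 sterol and bile acid genes that are not P450 genes, 6 were tested, 5 of them higher and 1 lower in the tubules. Acox2 and Amacr, peroxisomal enzymes of bile acid side chain shortening, had log2 differences of 1.29 ± 0.17 and 1.09 ± 0.12 (limma adjusted p = 7.17e-06 and 1.42e-06), and Akr1d1, Scp2 and Hsd17b4 followed with 0.92, 0.50 and 0.39. Hsd3b7, which acts on the products of Cyp7b1 and Cyp7a1, was at 8.42 to 14.1 TPM against 22.4 to 31.8 TPM (log2 difference -1.23 ± 0.15, limma adjusted p = 2.67e-06). Of 14 regulators of P450 genes, 11 were tested, 1 of them higher and 6 lower. Nr1h3, the oxysterol receptor LXR alpha, had a log2 difference of 0.81 ± 0.10 (limma adjusted p = 3e-06). Ahr, the aryl hydrocarbon receptor, was at 0.41 to 1.64 TPM against 3.31 to 3.97 TPM (log2 difference -1.14 ± 0.17, limma adjusted p = 4.09e-05), and its partner Arnt had a log2 difference of -0.93. Ppara, Nfe2l2, Rxra and Stat5b were also lower, with log2 differences from -0.69 to -0.36. The regulators' count was 3 higher and 4 lower with median-of-ratios rescaling, where Ppara (-0.40, adjusted p = 0.0586) and Stat5b (-0.09, adjusted p = 0.51) did not pass. It was 3 and 3 with quantile normalization, where Ahr (-0.29, adjusted p = 0.0734) and Arnt (-0.43, adjusted p = 0.056) did not pass and Stat5b changed sign (0.17, adjusted p = 0.138). Stat5b was also lost when any 1 of the 3 kidney replicates was left out (adjusted p from 0.0571 to 0.0771). The drug receptors Nr1i2 and Nr1i3 had tubule means of 0.152 and 0.861 TPM and were not tested. Of 5 heme genes, Blvrb was higher (0.34) and Hmox2 lower (-0.42), the latter not with median-of-ratios rescaling (-0.13, adjusted p = 0.156). The count for sterol and bile acid genes was 5 higher and 1 lower under both scalings. These counts stand beside the 9.68% and 41.5% of all genes called higher and lower.

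Among the sets, 5 of these listed genes differed by the F test (3.02% of all genes did). Alas1, the rate-limiting enzyme of heme synthesis, had means of 335 ± 12.4 TPM in m1, 267 ± 28.3 in m2 and 593 ± 73.4 in m3 (SD, 4 tubules each; F test, limma adjusted p = 3.8e-05). Fmo5 had means of 226 ± 20.8, 287 ± 15.1 and 400.2 ± 41.0 TPM (limma adjusted p = 0.00038). Amacr, Hmox1 and Nr1h4, the bile acid receptor, also differed (limma adjusted p = 0.011, 0.0281 and 0.0272). None of the 7 electron donors passed this limma F test, and 3 had an unadjusted p under 0.05. By tubule number Nr1h4 was the listed gene that passed (limma adjusted p = 0.0235), with means of 115, 111, 129 and 160.2 TPM for numbers 1 to 4.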

How the data were processed

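RNA-Seq of polyA RNA was analysed in 12 PTS2 tubule libraries and 3 whole kidney libraries. The authors extracted RNA with a Zymo kit, amplified cDNA with a low-input SMART-Seq kit and sequenced it on an Illumina instrument, per the labels' protocols and the series text. Reads were processed with STAR 2.5.1b and RSEM 1.2.31 and the build was GRCm38.p5, per the submitters' processing notes; the annotation release is not given in the sources used here. The authors deposited 1 table of TPM values, and every column summed to 1000000 apart from rounding. Their 4 summary columns (means and standard errors) were left out. Depth is unknown, so no interval, floor or count test is given. RSEM divides reads shared by similar genes by estimation, which can move TPM between near copies.

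Members and lists were chosen with earlier results of these data known. Tests used limma 3.58.1 (R 4.3.3, mean-variance trend) on log2(TPM + 1), which understates changes of low genes, for genes averaging 1 TPM or more in the libraries fitted. P-values were adjusted over all genes by Benjamini-Hochberg, two-sided, with a threshold of 0.05. For tubules against kidney the set entered as a correlated block (estimated correlation 0.0669); the 12 tubules were fitted by set, and by number with the set as a term. The fits were tested on simulated data with independent noise, so the correlated block was not checked. Of 200 genes changed by 1 on the log2 scale, 184 were recovered for tubules against kidney. For the sets 157 were recovered and for tubule number 117, so a gene that did not pass may still differ. Members were named if their mean reached 1 TPM over 15 or 12 libraries, with the 3 highest of the rest. Positions came from GENCODE M21 and promoters from RefSeq. Stretches of 50 bases were compared over all annotated transcripts. Python 3.11.15, numpy 2.4.6, pandas 2.3.3, Biopython 1.88 and matplotlib 3.10.9 were used. Alternatives were a pseudocount of 0.1, no filter or a mean of 10 TPM, median-of-ratios and quantile scaling, other models of set and number, the sum without its largest member, and each library left out. Some genes of the lists are counted but not reported by name here.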

Additional observations from a re-analysis of the deposited data

Results flagged for a closer look

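For each of the 23 more abundant members, the extreme tubule of each set of 4 was examined for a gap to the next that was large beside the spread of that set. Of 69 such tests 9 stood out, where chance gives about 1 in 20, or 3.45, for independent tests. The tests share tubules and the rate over all genes was not computed. An excess particular to these members can therefore not be read from this count. Of these 9 values, 5 were the highest of their set in a tubule numbered 4. Cyp2e1 was at 3215.97 TPM in replicate 4 of m3 (next 1444 TPM) and Cyp2j13 at 511.73 TPM in the same tubule (next 277 TPM). Replicate 4 of m1 had Cyp2a5 at 136.09 TPM (next 87.9 TPM) and Cyp2f2 at 3.38 TPM (next 0.76 TPM), and replicate 4 of m2 had Cyp2d12 at 104.37 TPM (next 48.5 TPM). Replicate 2 of m1 had Cyp2d12 at 7.54 TPM (next 30.9 TPM) and Cyp20a1 at 12.62 TPM (next 8.88 TPM). Cyp2d26 was at 5.34 TPM in replicate 3 of m1 (next 7.32 TPM), and Cyp27a1 was at 38.42 TPM in replicate 2 of m3 (next 43.6 TPM).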

How the results depend on the processing

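TPM keep no depth, so the counting error of low members is unknown. Of 1309 values of single members under alternatives, 1239 kept their direction and side of the threshold, 31 no longer passed, 15 newly passed and 24 changed sign, all 24 for members not called between tubules and kidney. The causes of the changes below were not tested, except that filters change which genes are tested.

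Between tubules and kidney, the number of lower members was 4 at a mean of 10 TPM (14 tested), 18 without a filter (67 tested) and 6 with quantile normalization. Over all genes 3113 were called at a mean of 10 TPM and 9399 without a filter, against 6161. Signs changed with median-of-ratios rescaling for Cyp2e1 (0.23), Cyp27a1 (0.20), Cyp2j9 (0.16) and Cyp2r1 (0.14), with quantile normalization for Cyp2j13 (-0.03), Cyp27a1 (0.11), Cyp2j9 (0.61, adjusted p = 0.014), Cyp2b10 (0.41) and Cyp2r1 (0.80), and with 1 mean per set for Cyp2e1 (0.04) and Cyp2r1 (0.05). With single libraries left out, the ranges were -0.18 to 0.05 for Cyp2e1, -0.14 to 0.23 for Cyp2j13, -0.25 to 0.00 for Cyp2j9 and -0.12 to 0.10 for Cyp2r1.

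Among the sets, 1 member passed the F test at a mean of 10 TPM, where Cyp2d26 was not tested; m3 against m1 then had 2 and m3 against m2 had 0. Median-of-ratios rescaling gave 0 for m3 against m1, and leaving out libraries gave 0 to 3; no filter gave 2 for m3 against m2. By tubule number, 0 members passed without a filter and 0 without the set term. Over all genes, without a filter, 196 passed the F test among sets, 178 between m3 and m1 and 111 between m3 and m2; m2 against m1 had 105 with median-of-ratios rescaling and 107 with quantile normalization. The summed member level without Cyp2e1 was 4876 TPM (4876.2) in the tubules and 3029 TPM (3029.3) in kidney, and with median-of-ratios rescaling it was 4040.0 TPM in kidney.

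The tubule numbers of the 3 sets shared only a number in the labels. Correlations were taken between libraries of different sets on log2 values with the set mean of each gene removed, not on the levels themselves. The 12 same-numbered pairs had a mean of 0.143 (0.0254 to 0.273, 7 over 0.1) and the 36 other pairs -0.0481. Removing the set means makes these correlations nearly cancel, so the negative value carries no information of its own. Of 12 libraries, 9 correlated best with their own number. With the replicate number as a block, 4 members (Cyp2j6 at adjusted p = 0.0248 and Cyp7b1 at 0.0369 beside Cyp2d9 and Cyp2d26) and 888 genes passed the F test among sets, 2 members and 307 genes differed between m2 and m1, 4 and 838 between m3 and m1, and 1 and 416 between m3 and m2. Between tubules and kidney the block gave 5 members higher and 9 lower, with Cyp7b1 called (1.38, adjusted p = 0.000466) and Cyp20a1 not (-0.47, adjusted p = 0.0577), and values of -0.16 for Cyp2j13 and -0.05 for Cyp2a5.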
